A study of Mus musculus with 24 samples.

Results

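The genes of MHC class I antigen presentation were followed in mouse embryonic fibroblasts (MEFs) from which the enzymes that methylate lysine 9 of histone H3 (H3K9) were removed step by step. The set has 10 members, taken by symbol from the Ensembl gene entries of the count table: *H2-K1*, *H2-D1*, *B2m*, *Tap1*, *Tap2*, *Tapbp*, *Psmb8*, *Psmb9*, *Psmb10* and *Nlrc5*. The table holds 47937 genes, of which 18565 passed a filter on low counts, and 10 of the 10 members passed it. RNA was sequenced from 24 cultures, 3 biological replicates in each of 8 conditions. All 8 conditions descend from a single MEF line with a floxed *Eset1* (*Setdb1*) allele and a Cre recombinase that 4-hydroxytamoxifen (4-OHT) activates. WT is this line without 4-OHT, and *E1* is the same line after 4-OHT, which removes floxed exons of *Eset1*. *E2* is a clone with a CRISPR/Cas9 mutation of *Eset2* (*Setdb2*) kept without 4-OHT, and *E1E2* is that clone after 4-OHT. In series 1, *E1 S1S2* lacks *Eset1*, *Suv39h1* and *Suv39h2*. *6KO1* comes from the same clone before 4-OHT, by further mutation of *Eset2*, *G9a* (*Ehmt2*) and *Glp* (*Ehmt1*). In series 2, *E1E2 G9Gl* lacks *Eset1*, *Eset2*, *G9a* and *Glp*. *6KO2* comes from that clone before 4-OHT, by mutation of *Suv39h1* and *Suv39h2*. The compound mutants were sequenced after 4-OHT, which removed *Eset1* last. Each mutant genotype is 1 clone, so that the genotype and the history of the clone cannot be told apart, and the 3 replicates measure the spread between cultures of a clone. *E2* aside, every mutant condition had 4-OHT and WT did not. In those comparisons with WT, 4-OHT, Cre activity and the loss of *Eset1* cannot be told apart either.

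Class I molecules display peptides from the inside of the cell to CD8+ T cells. A polymorphic heavy chain, in the mouse H2-K or H2-D, pairs with beta-2 microglobulin (B2m), and the peptide is cut from cytosolic proteins by the proteasome and carried into the endoplasmic reticulum by the TAP transporter, a dimer of Tap1 and Tap2. Tapasin (Tapbp) holds the empty heavy chain at the transporter. Psmb8, Psmb9 and Psmb10 are the interferon-inducible catalytic subunits that replace Psmb5, Psmb6 and Psmb7 to form the immunoproteasome, and Nlrc5 is the NLR-family transactivator that acts on class I promoters. Fibroblasts express the pathway at a low basal level that interferons raise. In GRCm38, 7 members lie in the MHC on chromosome 17: *Tapbp* (17:33915899-33929292, plus strand), *H2-K1* (17:33996017-34000347, minus), *Psmb9* (17:34181987-34187764, minus), *Tap1* (17:34187553-34197225, plus), *Psmb8* (17:34197721-34201454, plus), *Tap2* (17:34203527-34216321, plus) and *H2-D1* (17:35262730-35267499, plus). *B2m* is at 2:122147686-122153083 (plus strand), *Psmb10* at 8:105935735-105938444 (minus) and *Nlrc5* at 8:94434356-94527272 (plus).

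Promoter sequences from RefSeq (GRCm38.p6; 250 bases before to 50 after the start site) matched 8 of the 10 members. *Tap2* and *Nlrc5* had no match. Shown are the light chain, both heavy chains and the transporter subunit that had a window, whose RNA rose in *E1E2 G9Gl* and *6KO1*. *Psmb10*, whose RNA was level in both but 0.98 (log2) above WT in *E1E2*, is also shown. The windows shown are *B2m* (chr2:122147437-122147736, plus strand), *H2-K1* (chr17:34000298-34000597, minus), *H2-D1* (chr17:35262844-35263143, plus), *Tap1* (chr17:34187306-34187605, plus) and *Psmb10* (chr8:105938343-105938642, minus). The windows of *Psmb8*, *Psmb9* and *Tapbp*, whose RNA also rose, are not shown. Capitals mark matches to 6 motifs on either strand: the core of the interferon-stimulated response element (ISRE, a pair of GAAA words with any 2 bases between), the STAT site TTCNNNGAA, the NF-kB site (GGG and TTTCC with any 2 bases between), the CCAAT box, TTTCACTT (the core of the class I interferon element) and TGACG (the core of the X2 box). The last pair was added after the sequences had been read.
B2m: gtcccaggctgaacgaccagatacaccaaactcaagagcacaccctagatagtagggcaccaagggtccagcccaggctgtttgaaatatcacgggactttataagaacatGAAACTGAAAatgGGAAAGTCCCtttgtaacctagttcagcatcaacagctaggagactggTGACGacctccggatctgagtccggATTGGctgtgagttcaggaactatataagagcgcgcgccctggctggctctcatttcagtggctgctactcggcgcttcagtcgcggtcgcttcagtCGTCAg
H2-K1: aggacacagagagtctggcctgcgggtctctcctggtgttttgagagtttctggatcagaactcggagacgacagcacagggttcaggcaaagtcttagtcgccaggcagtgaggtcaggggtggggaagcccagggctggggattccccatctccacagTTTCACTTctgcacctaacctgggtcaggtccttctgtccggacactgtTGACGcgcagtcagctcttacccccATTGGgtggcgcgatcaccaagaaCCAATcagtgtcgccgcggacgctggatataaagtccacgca
H2-D1: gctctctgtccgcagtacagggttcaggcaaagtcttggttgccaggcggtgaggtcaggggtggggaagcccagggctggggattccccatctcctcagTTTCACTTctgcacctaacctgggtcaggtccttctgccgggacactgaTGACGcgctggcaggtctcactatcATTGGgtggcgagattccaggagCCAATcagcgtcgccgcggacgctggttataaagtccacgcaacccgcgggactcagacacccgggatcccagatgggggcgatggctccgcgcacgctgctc
Tap1: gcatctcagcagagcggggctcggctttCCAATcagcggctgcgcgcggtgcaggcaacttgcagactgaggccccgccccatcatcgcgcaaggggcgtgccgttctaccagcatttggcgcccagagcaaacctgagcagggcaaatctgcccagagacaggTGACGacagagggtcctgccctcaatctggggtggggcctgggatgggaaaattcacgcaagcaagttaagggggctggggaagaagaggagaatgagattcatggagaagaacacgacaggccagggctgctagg
Psmb10: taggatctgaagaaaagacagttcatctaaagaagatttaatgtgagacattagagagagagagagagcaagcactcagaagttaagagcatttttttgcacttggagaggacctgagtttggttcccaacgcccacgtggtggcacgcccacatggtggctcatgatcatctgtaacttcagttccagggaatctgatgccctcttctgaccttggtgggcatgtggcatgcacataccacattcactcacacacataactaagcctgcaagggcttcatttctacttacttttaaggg
In *H2-K1* and *H2-D1* the class I interferon element core, the X2 core, a reversed CCAAT box and a CCAAT box followed each other in the same order. The first of these began at -90 from the start site of *H2-K1* and -150 from that of *H2-D1*, and the X2 core at -41 and -101. The windows of these paralogs were identical at 73.3% of 240 aligned bases. The interferon element core (1.6% of all windows alone), the X2 core and the CCAAT box occurred together in 0.119% of 32851 promoter windows of the same length. *B2m* was the only one of the 8 with the ISRE core (3.44% of all windows), at -139, and with the NF-kB site (1.63%), at -126. The X2 core (20.8% of all windows) occurred in 5 of the 8 and the CCAAT box (37.4%) in 6. The windows of *Tap1* and *Psmb9* overlap on opposite strands. Their X2 core and CCAAT matches are the same bases and are counted for both members. *Psmb10* had no match to any of the 6 motifs. The STAT site (8.3% of all windows) was found in *Psmb8* alone, at -97. *Psmb8*, whose RNA rose 44.7-fold from WT in *E1E2 G9Gl*, had no match to the other motifs. These matches describe letters in a window, and occupancy was not measured.

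Between 24737307 and 37419816 counts were assigned per library, 19541909 to 31489070 of them to genes. Levels are CPM, the counts of a gene scaled to the gene counts of its library with TMM factors. WT replicate 2 stood apart from the other WT libraries (chi-square per gene 62.8 and 52.5, against 2.12 to 23.2 for other replicate pairs). In *E2*, replicate 2 was the lowest of the 3 libraries for 10 of the 10 members. Of the targeted genes, *Setdb1* RNA fell by 0.57 (log2) in *E1* and differed by 0.0070 between *E2* and *E1E2*, so that it does not tell these 2 conditions apart. *Setdb2* differed from WT by -1.36 in *E2*, *Suv39h1* by -1.14 in *E1 S1S2* and *Ehmt1* by -1.40 in *E1E2 G9Gl*. The libraries are named by their labels. *Ehmt2* RNA was 127 CPM in WT, 86.2 in *6KO2*, 50.9 in *6KO1* and 39.6 in *E1E2 G9Gl*, and *Suv39h2* was higher by 0.76 in *E1 S1S2*, where it is mutated.

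The heavy chains and the light chain reached their highest levels in *6KO1* and in *E1E2 G9Gl*. *H2-K1* was at 70.4, 76.3 and 73.7 CPM in the 3 WT libraries, at 676, 665 and 665 CPM in *E1E2 G9Gl*, at 1255, 1303 and 1282 CPM in *6KO1*, and at 135, 111 and 135 CPM in *6KO2*. The other conditions lay between 86.9 and 148 CPM. All mutant libraries were above all WT libraries, but *6KO2*, *E1E2* and *E2* overlapped each other. *H2-K1* rose 9.10-fold from WT in *E1E2 G9Gl* (log2 3.19, SE 0.11) and 17.4-fold in *6KO1* (4.12, SE 0.11), with adjusted p of 9.81e-18 and 2.22e-19 (edgeR). In *6KO2* it was 1.73-fold above WT (0.79, SE 0.10, adjusted p = 3.38e-07, edgeR), under the 2-fold minimum. A gene is called here where it differs at least 2-fold with an adjusted p of at most 0.01.

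*H2-D1* had 51.1, 49.3 and 51.6 CPM in WT, 742, 715 and 712 CPM in *E1E2 G9Gl*, 1143, 1185 and 1077 CPM in *6KO1*, and 207, 185 and 211 CPM in *6KO2*. No library of these 4 conditions overlapped one of another. In *6KO1* it rose 22.4-fold from WT, in *E1E2 G9Gl* 14.3-fold and in *6KO2* 3.96-fold (log2 1.99, SE 0.09, adjusted p = 3.01e-15, edgeR). Within a library, *H2-K1* had 1.45 ± 0.088 times the reads of *H2-D1* in WT (SD, n = 3), 0.925 ± 0.012 in *E1E2 G9Gl*, 1.13 ± 0.053 in *6KO1*, but 0.630 ± 0.029 in *6KO2*. The WT ratios, from 1.38 to 1.55, were above those of all 3 conditions. Of the 75-base words in the transcripts of *H2-K1*, 3.1% also occur in another gene, mostly a class I heavy chain, and of those of *H2-D1* 5.4%, so that a share of the reads of both is uncertain.

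*B2m* was at 136, 228 and 150.1 CPM in WT, where replicate 2 was the highest, at 851, 889 and 889 CPM in *E1E2 G9Gl*, and at 893, 1017 and 1018 CPM in *6KO1*. It rose 5.11-fold and 5.69-fold (log2 2.35 and 2.51, both SE 0.14, adjusted p = 8.17e-13 and 2.64e-13, edgeR). In *6KO2* it had 251, 226 and 250.2 CPM, and 1 of these libraries was below WT replicate 2. Its difference from WT there was 0.50 (SE 0.14, adjusted p = 0.00285, edgeR), under the 2-fold minimum. In *E1*, *E2*, *E1E2* and *E1 S1S2*, *B2m* ranged from 135 to 210.0 CPM and no difference from WT had an adjusted p of at most 0.01 (edgeR, 0.102 to 0.715).

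*Nlrc5*, the transactivator, had the largest fold rise of the 10 in both *6KO* lines and in *E1E2 G9Gl*, except that without WT replicate 2 *Psmb9* (log2 7.44) passed it (7.14) in *6KO1*. It was at 1.01, 1.08 and 0.991 CPM in WT (24 to 30 counts), at 133, 123 and 125 CPM in *E1E2 G9Gl*, at 154, 138 and 134 CPM in *6KO1*, and at 22.7, 18.6 and 24.3 CPM in *6KO2*. The groups did not overlap. In *6KO1* it rose 137-fold from WT (log2 7.10, SE 0.19), in *E1E2 G9Gl* 123-fold (6.94, SE 0.19) and in *6KO2* 21.2-fold (4.40, SE 0.20), with adjusted p of 2.23e-19, 2.81e-19 and 8.02e-15 (edgeR). *E1E2* (5.25 to 7.18 CPM) and *E1 S1S2* (4.98 to 5.47 CPM) came next and overlapped each other. Both were above WT (2.56, SE 0.23, and 2.36, SE 0.23, adjusted p = 4.17e-09 and 9.31e-09, edgeR). In *E2* the 3 libraries had 1.36, 0.248 and 0.798 CPM, a spread that included the WT values.

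**Figure D1:**
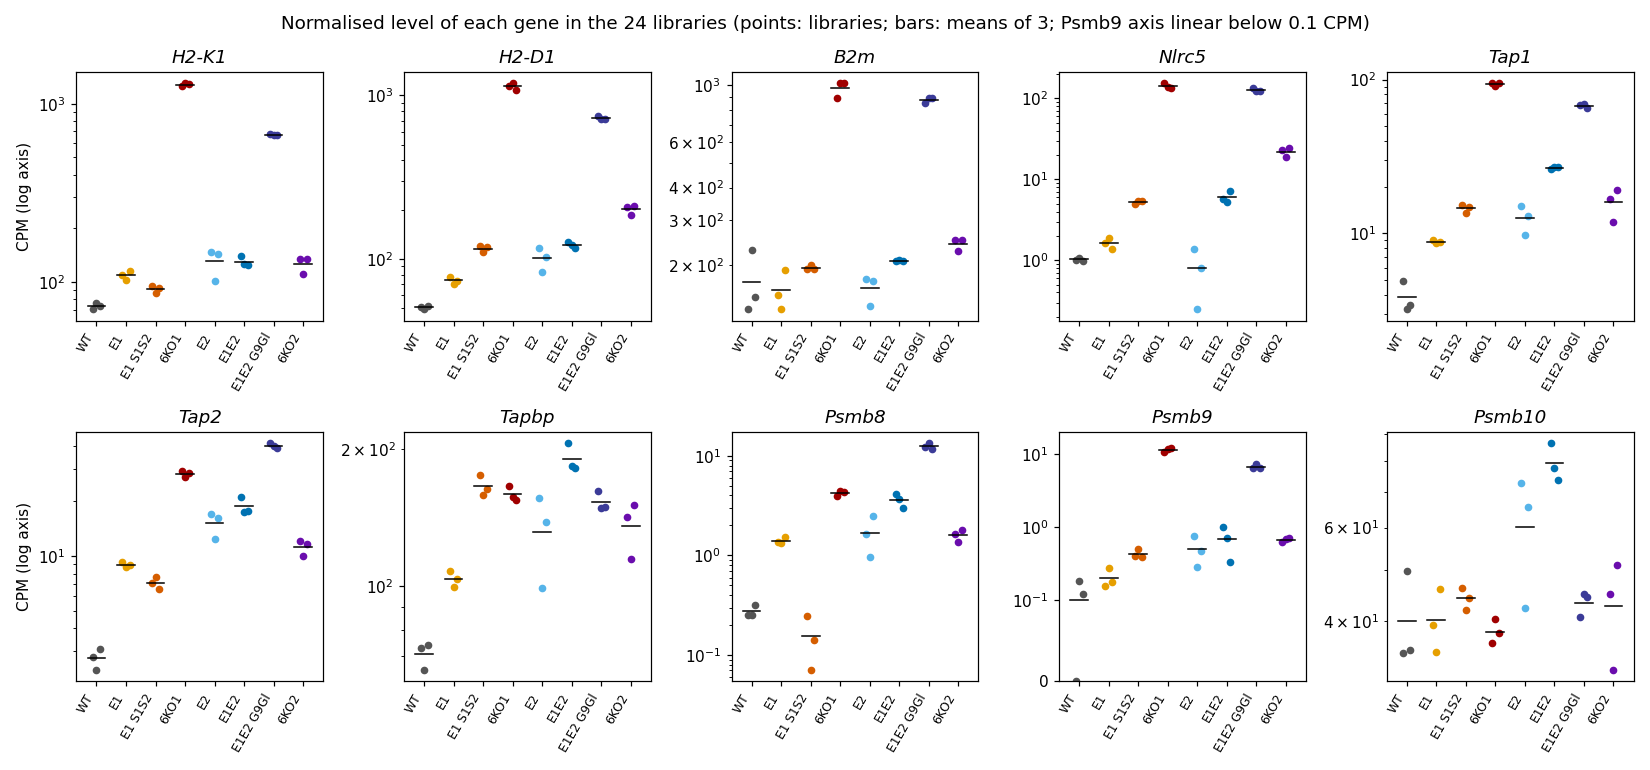
Level of each of the 10 genes in CPM (vertical log axes, each panel with its own range; *Psmb9* linear below 0.1) in the 24 libraries of 8 conditions, with series 1 before series 2 and a bar for the mean of 3. *6KO1* and *E1E2 G9Gl* stand above the other conditions for 7 of the genes, *6KO2* lies lower than *E1E2 G9Gl* for 8 called genes, and *Psmb10* shows neither pattern.

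The TAP subunits were the members called above WT, with the 2-fold minimum, in the most conditions. *Tap1* was at 4.88, 3.21 and 3.45 CPM in WT and at 9.03, 8.65 and 8.78 CPM in *E1*. It reached 26.3, 27.1 and 27.0 CPM in *E1E2*, 68.1, 69.5 and 64.9 CPM in *E1E2 G9Gl*, and 94.7, 90.7 and 94.6 CPM in *6KO1*, but only 16.8, 11.9 and 19.1 CPM in *6KO2*. Every mutant library was above every WT library, and *6KO2* overlapped *E1 S1S2* and *E2*. The differences from WT ran from 1.21 in *E1* (SE 0.17, adjusted p = 8.52e-06, edgeR) to 4.61 in *6KO1* (SE 0.16, adjusted p = 1.64e-17, edgeR), and *Tap1* was called in 7 of the 7 comparisons with WT.

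*Tap2* was called in 7 of 7 as well, but in another order. It had 2.78, 2.38 and 3.09 CPM in WT, 41.4, 40.3 and 39.2 CPM in *E1E2 G9Gl*, 29.3, 27.0 and 28.4 CPM in *6KO1*, and 12.05, 9.98 and 11.6 CPM in *6KO2*. Its highest level was in *E1E2 G9Gl*, and 8 of 8 conditions had no overlap with their neighbours in the order of levels. The rise from WT was 14.7-fold in *E1E2 G9Gl* (log2 3.88, SE 0.12, adjusted p = 2.84e-18, edgeR) and 10.3-fold in *6KO1* (3.36, SE 0.12, adjusted p = 4.46e-17, edgeR). The ratio of *Tap1* to *Tap2* reads was 1.41 ± 0.33 in WT, 0.829 ± 0.058 in *E2*, 1.67 ± 0.044 in *E1E2 G9Gl* and 3.31 ± 0.065 in *6KO1* (SD, n = 3), where it was highest.

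*Tapbp* changed least among the members that were called. WT libraries held 65.5 to 74.3 CPM and mutant libraries 99.0 to 206 CPM, with the highest mean in *E1E2* (190.5 ± 13.4, SD, n = 3). It was called in *E1E2* (log2 1.43, SE 0.11), *E1 S1S2* (1.22), *6KO1* (1.17) and *E1E2 G9Gl* (1.11), with adjusted p from 8.14e-10 to 9.87e-09 (edgeR). In *E1*, *E2* and *6KO2* the differences of 0.55, 0.89 and 0.94 were under the 2-fold minimum. The *Tapbp* annotation shares 904 exon bases with an antisense RNA and 149 with *Zbtb22* on its own strand. *Tap2* shares 533 and 165 exon bases with a pair of antisense RNAs, *Psmb8* shares 498 with one of these, and *Tap1* and *Psmb9* share 212 exon bases on opposite strands. The libraries were stranded, but whether the counting used strand is not stated, so reads in these stretches cannot be placed.

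The 3 immunoproteasome genes did not move alike. *Psmb9* was at 0, 0.180 and 0.119 CPM in WT (0 to 5 counts), at 6.35, 7.40 and 6.50 CPM in *E1E2 G9Gl*, at 10.6, 11.8 and 12.05 CPM in *6KO1*, and at 0.613, 0.677 and 0.698 CPM in *6KO2*. *E1E2 G9Gl* and *6KO1* were above every other library. The rises of 5.95 (SE 0.34) and 6.72 (SE 0.32) on the log2 scale had adjusted p of 3.45e-13 and 1.18e-14 (edgeR), and that in *6KO2* was 2.61 (SE 0.51, adjusted p = 1.18e-04, edgeR).

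*Psmb8* was at 0.252, 0.252 and 0.317 CPM in WT (6 to 8 counts) and at 12.4, 13.3 and 11.7 CPM in *E1E2 G9Gl*, but at 3.96, 4.47 and 4.32 CPM in *6KO1* and 1.63, 1.35 and 1.79 CPM in *6KO2*. Unlike the other members it was low in *E1 S1S2*, with 0.247, 0.0715 and 0.142 CPM (2 to 8 counts), below the 1.33 to 1.53 CPM of *E1*. The fall from *E1* to *E1 S1S2* was called (-3.11, SE 0.36, adjusted p = 2.46e-07, edgeR), and *E1 S1S2* was not called against WT (-0.77, SE 0.51, adjusted p = 0.213, edgeR). *Psmb8* was called above WT in the other 6 conditions.

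*Psmb10* was expressed in WT at 34.9, 49.8 and 35.3 CPM and in *6KO1* at 36.3, 40.3 and 38.1 CPM, with overlap between them. Its differences from WT in *E1E2 G9Gl*, *6KO1* and *6KO2* were 0.11, -0.07 and 0.10 (SE 0.17 each, adjusted p = 0.564, 0.731 and 0.628, edgeR). The highest levels were in *E1E2* (73.7 to 86.3 CPM, 0.98 above WT, SE 0.16, adjusted p = 3.69e-05, edgeR), just under the 2-fold minimum. From *E1E2* to *E1E2 G9Gl* it differed by -0.87 (SE 0.16, adjusted p = 7.47e-05, edgeR), while 8 other members rose over that step.

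Set against the constitutive subunit each replaces, per kb of annotated exon, *Psmb8* was at 0.107 ± 0.028% of *Psmb5* in WT and at 8.13 ± 0.63% in *E1E2 G9Gl*, and *Psmb9* went from 0.0220 ± 0.019% of *Psmb6* in WT to 3.87 ± 0.18% in *6KO1* (SD, n = 3). *Psmb10* was at 30.0 ± 0.90% of *Psmb7* in WT, 57.0 ± 13.6% in *E2*, 68.1 ± 5.8% in *E1E2*, its highest, and 50.3 ± 2.4% in *E1E2 G9Gl*. In *E1E2 G9Gl* this ratio rose while *Psmb10* itself was level, since *Psmb7* was lower there (173 CPM, against 268 in WT, log2 -0.63). Exon lengths are unions over all annotated transcripts, and those of *Psmb8* and *Psmb9* exceed 3 kb, which lowers their per kb values. That of *Psmb7* is 3421 bases against 1705 for *Psmb10*, which raises the *Psmb10* percentages: *Psmb10* had 0.149 times the reads of *Psmb7* in WT.

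**Figure D2:**
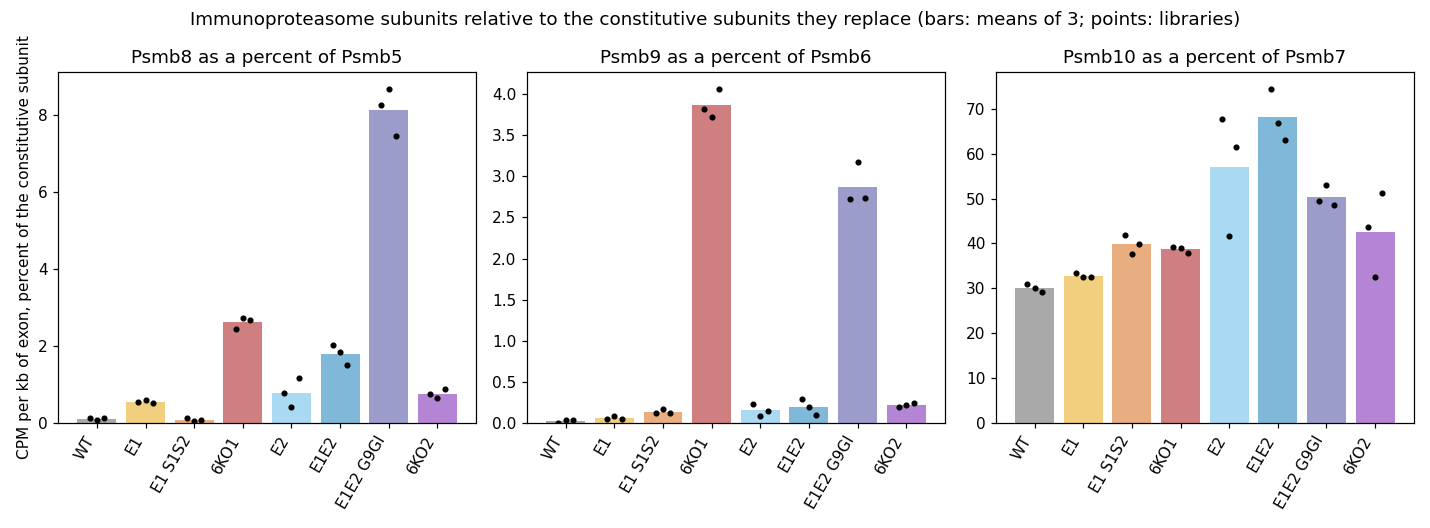
Immunoproteasome subunits as a percent of the constitutive subunit, in CPM per kb of exon (vertical axis, linear from 0), by condition, with points for libraries and bars for the mean of 3. *Psmb8* is highest in *E1E2 G9Gl* at 8.13%, *Psmb9* in *6KO1* at 3.87% and *Psmb10* in *E1E2* at 68.1%. *Psmb10* is at least 29.1% in every library.

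Against WT, 3 of the 10 members were called up in *E1* (*Tap1*, *Tap2* and *Psmb8*), where 2.27% of all tested genes were called up. In *E2* 4 were called (the same 3 and *Psmb9*; 2.9% of all genes), and *H2-D1* missed the 2-fold minimum with a log2 difference of 0.996. In *E1E2* 7 were called (5.51% of all genes) and in *E1 S1S2* 6 (6.65%). The counts were 9 in *E1E2 G9Gl* (16.8%), 9 in *6KO1* (20.6%), but 6 in *6KO2* (15.3%). 0 members were called down against WT by edgeR or DESeq2, where edgeR called down 1.99, 3.21, 3.22, 5.11, 8.41, 10.2 and 5.39% of all genes in the same order of conditions. 0 members were lower at an unadjusted p under 0.05 (edgeR), and the differences from WT with a negative sign were small or had few counts (*B2m*, *Nlrc5*, *Psmb8* and *Psmb10*). All 3 libraries lay above all WT libraries for 7 members in *E1* (14.3% of all genes), 7 in *E2* (17.6%), 9 in *E1E2* (24.2%), 7 in *E1 S1S2* (26.5%), 9 in *E1E2 G9Gl* (35.4%), 9 in *6KO1* (39.1%), but 8 in *6KO2* (34.7%). With no fold minimum, 6 members passed the adjusted p in *E1* (13.3% of all genes) and 8 in *E2* (27%), and 5 in the comparison of *E1 S1S2* with *E1* (33.5%). The median difference over the 10 was 0.61 in *E1*, 0.94 in *E2*, 1.99 in *E1E2*, 1.21 in *E1 S1S2*, 3.86 in *E1E2 G9Gl*, 4.03 in *6KO1*, but 2.01 in *6KO2*, while the median of all tested genes stayed between -0.013 and 0.061 on the log2 scale. The 7 comparisons share the WT libraries. The *E2* count was 6 without *E2* replicate 2, when *H2-D1* (1.12) and *Tapbp* (1.05) were also called, and 3 without *E2* replicate 1. *Psmb9* rested on few counts: it was no longer called in *E2* without *E2* replicate 1 (1.76) or WT replicate 1 (1.65), nor in *E1 S1S2* without its replicate 2 (1.88) or WT replicate 1 (1.48).

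**Figure D3:**
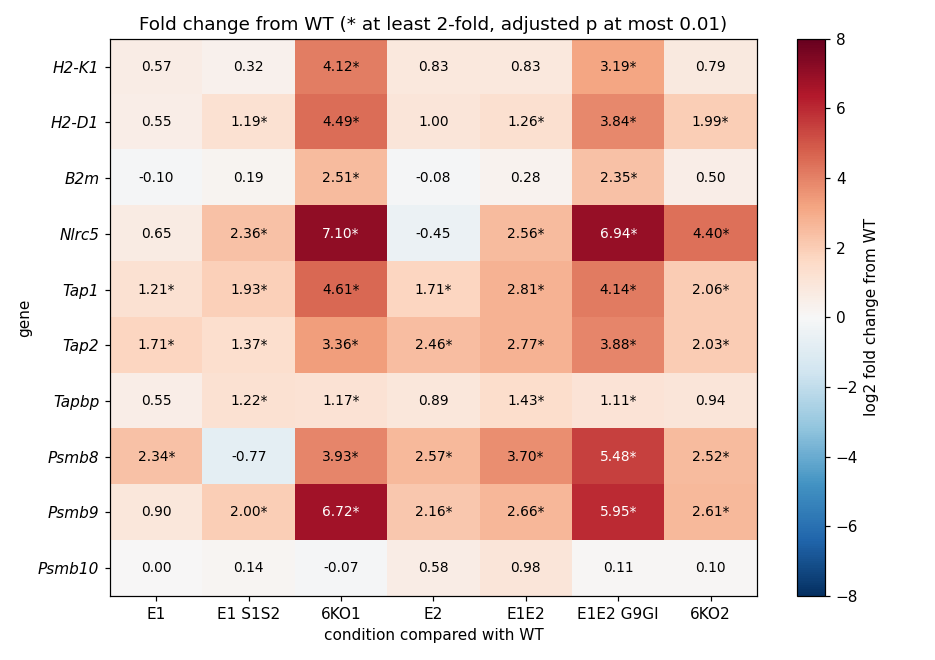
Log2 fold change from WT (colour and number) for the 10 genes in 7 conditions, with an asterisk for at least 2-fold and an adjusted p of at most 0.01 (edgeR). *Tap1* and *Tap2* are marked in every column, and *Psmb10* in none.

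The steps within each series show where the members moved. In series 1, from *E1* to the *Suv39h1* and *Suv39h2* mutant clone *E1 S1S2*, 1 member was called up and 1 down. They were *Nlrc5* (log2 1.70, SE 0.21, adjusted p = 4.39e-07, edgeR, with 4.31% of all genes up) and *Psmb8* (3.75% of all genes down). From *E1 S1S2* to *6KO1*, 8 members rose (16.3% of all genes), from 1.99 for *Tap2* (SE 0.10) to 4.75 for *Nlrc5* (SE 0.15). *Tapbp* and *Psmb10* differed by -0.06 and -0.21 there and were not called.

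In series 2, 4-OHT treatment of the *Eset2* clone called 3 members up (2.32% of all genes): *Nlrc5* (3.004, SE 0.25), *Psmb8* (1.13, SE 0.22) and *Tap1* (1.09, SE 0.14), with adjusted p of 8.04e-09, 5.19e-04 and 3.63e-06 (edgeR). Without *E2* replicate 2, the lowest library of its group, *Psmb8* (0.81) and *Tap1* (0.93) were no longer called and 1 member remained. From *E1E2* to *E1E2 G9Gl*, the clone with *G9a* and *Glp* also mutated, 8 were called up (14.8% of all genes), led by *Nlrc5* (4.38, SE 0.15) and *Psmb9* (3.29, SE 0.25). *H2-D1* rose by 2.57, *H2-K1* by 2.36 and *B2m* by 2.07.

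The step from *E1E2 G9Gl* to *6KO2* went the other way. With *Suv39h1* and *Suv39h2* also mutated, 8 of 10 members were called down (9.12% of all genes) and 0 up (7.19%; edgeR, also 0 with DESeq2, and 0 were higher at an unadjusted p under 0.05). The log2 differences were -3.34 for *Psmb9*, -2.96 for *Psmb8*, -2.53 for *Nlrc5*, -2.40 for *H2-K1*, -2.08 for *Tap1* and -1.85 for each of *B2m*, *H2-D1* and *Tap2* (SE 0.08 to 0.25, adjusted p at most 1.29e-10, edgeR). The remaining pair, *Tapbp* and *Psmb10*, differed by -0.17 and -0.02. Between the lines that carry mutations in all 6 genes, 8 members were higher in *6KO1* than in *6KO2* (9.77% of all genes), from 1.33 for *Tap2* (SE 0.10) and 1.41 for *Psmb8* (SE 0.21) to 4.11 for *Psmb9* (SE 0.24). *H2-K1* was 10.09-fold higher in *6KO1* (adjusted p = 1.94e-17, edgeR). The lines differ in clone and in the order of mutation, which cannot be told apart. *Ehmt2* RNA differed over the same step, by 1.12 from *E1E2 G9Gl* to *6KO2* (SE 0.09, adjusted p = 5.17e-10, edgeR), and its part in these differences was not tested.

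**Figure D4:**
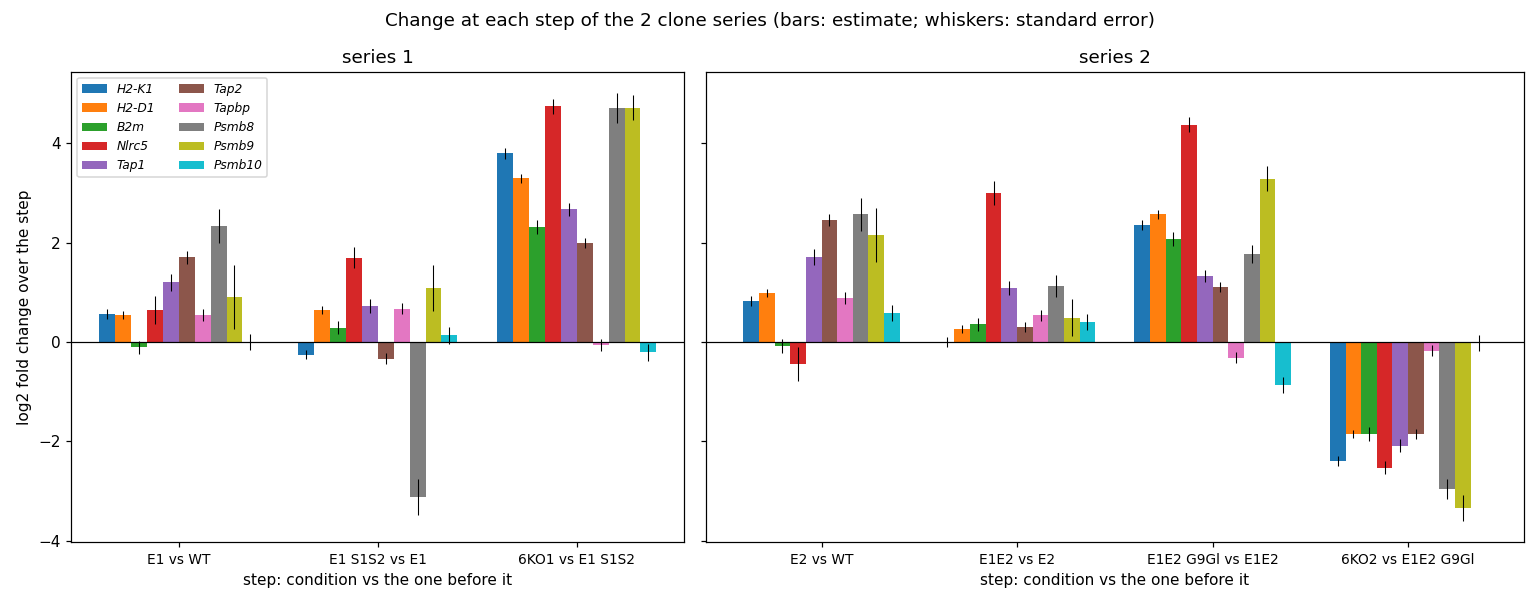
Log2 fold change at each step (bars, one colour per gene; whiskers are 1 standard error) in series 1 (left) and series 2 (right), each condition compared with the one before it. In 8 of the genes the step to *6KO1* is upward (1.99 to 4.75) and the step to *6KO2* downward (-1.85 to -3.34), while *Tapbp* and *Psmb10* stay near 0 in both.

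The effect of 4-OHT could be compared between the parental line (*E1* against WT) and the *Eset2* clone (*E1E2* against *E2*). *Nlrc5* differed by 0.65 (SE 0.28, adjusted p = 0.114, edgeR) in the first and by 3.004 in the second, and the difference between these effects was 2.35 (SE 0.40, adjusted p = 2.07e-04, edgeR; 2.01% of all genes called up in this contrast). *Tap2* showed the opposite order, with 1.71 (SE 0.13) in the parental line and 0.31 (SE 0.10) in the clone, a difference of -1.39 (SE 0.16, adjusted p = 1.54e-06, edgeR; 1.41% of all genes called down). *Tap2* already stood at 12.4 to 16.96 CPM in *E2*. For *H2-K1* the effects were 0.57 and -0.0028, with a difference of -0.58 (SE 0.14, adjusted p = 0.00555, edgeR), under the 2-fold minimum. The other 7 members had adjusted p from 0.0551 to 1.00 in this test (edgeR).

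Around the 10 genes, the other class I heavy chains showed the most calls. Of 26 listed, 15 were tested, and 11 were called up in *E1E2 G9Gl* (16.8% of all genes), 11 in *6KO1* (20.6%), but 7 in *6KO2* (15.3%). In *6KO2*, *Mr1*, which presents vitamin metabolites, was called down (-2.10, with 5.39% of all genes called down). *H2-T24*, a non-classical heavy chain, rose from 0.122 CPM in WT to 8.84 in *E1E2 G9Gl* and 9.39 in *6KO1*, but 1.32 in *6KO2*. *H2-Q6* and *H2-Q5*, of the Q region, had 0 counts in all WT libraries. *H2-Q6* reached 6.43 CPM in *E1E2 G9Gl*, at least 164-fold higher, and *H2-Q5* reached 3.65 CPM in *6KO1*, at least 93.4-fold higher, where 3 counts over the WT group set the bound. *H2-M2* likewise had 0 counts in WT and reached 0.658 CPM in *6KO1* and 0.530 in *6KO2*. With such genes at their bound, the median difference of the 15 was 4.81, 4.07 and 0.91 in the 3 conditions. *H2-Q5* and *H2-Q6* share 75-base words with *H2-K1*, and counts are uncertain where reads match several genes. Words shared among the other heavy chains were not counted.

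The constitutive machinery did not rise with the members. Of the 14 constitutive 20S proteasome subunits, 0 were called in *E1E2 G9Gl* or *6KO2* by edgeR, and in *6KO1* 1 was called down, *Psma4* (-1.16). Of all genes, 8.41, 5.39 and 10.2% were called down in *E1E2 G9Gl*, *6KO2* and *6KO1*. The medians of the 14 in that order were -0.54, -0.36 and -0.68, against 0.0088, 0.041 and 0.061 for all tested genes. Of 9 activator and assembly genes, *Psmg1* (-1.18) and *Psmg2* (-1.33), assembly chaperones, were called down in *6KO1* (10.2% of all genes). *Psme1* and *Psme2*, the interferon-inducible activator subunits, differed from WT by 0.10 and 0.13 in *6KO1* and were not called. Of 11 loading and trimming genes, 2 were called up (20.6% of all genes) and 2 down (10.2%) in *6KO1*. Among them was *Thop1*, a peptide-degrading endopeptidase, which fell by 1.69 there (log2) and differed by -1.27 in *6KO2*.

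Among 16 transcription regulators of class I genes, 3 were called up in each of *6KO1*, *6KO2* and *E1E2 G9Gl*. Of all tested genes, 20.6, 15.3 and 16.8% were called up in these conditions, so the count is near that of genes at large. *Irf9*, a DNA-binding factor of the interferon response, rose by 2.71 in *6KO1*, by 2.19 in *E1E2 G9Gl* and by 1.08 in *6KO2* (SE 0.20 each). From *E1E2 G9Gl* to *6KO2* it differed by -1.12 and was called down. In *E1*, where *Tap1*, *Tap2* and *Psmb8* were called, *Irf9* differed from WT by 0.29 (SE 0.20). *Jak2*, a receptor-bound kinase, was the 1 called gene of 9 interferon receptors and signalling genes in both *6KO* lines and *E1E2 G9Gl*. Its difference from WT was largest for *6KO2* (1.56), against 1.20 for *6KO1* and 1.24 for *E1E2 G9Gl*. Of 5 listed interferon genes, which included no *Ifna* gene, 0 passed the filter on counts. *Ifnb1* had 0 counts in WT, *E1*, *E2* and *E1 S1S2* and 7, 4, 15 and 7 counts over the 3 libraries of *E1E2*, *E1E2 G9Gl*, *6KO1* and *6KO2*, and *Ifng* had 0 counts in every library.

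**Figure D5:**
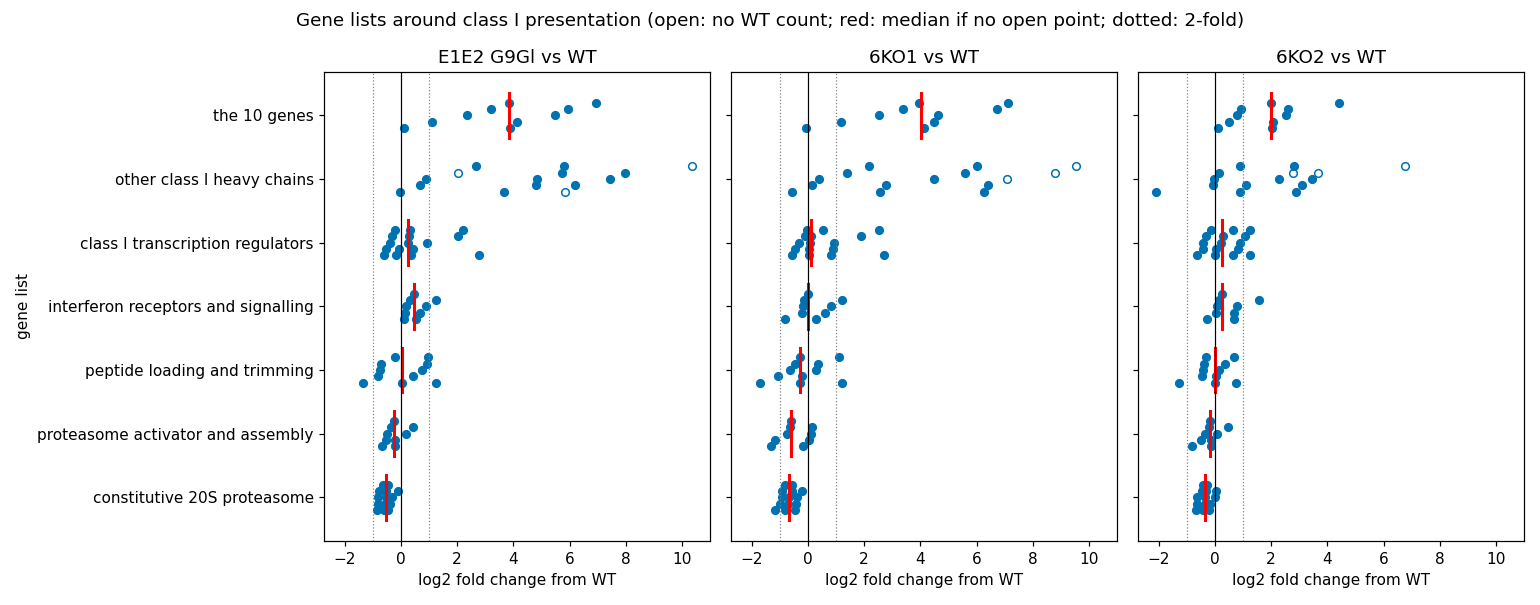
Log2 fold change from WT (horizontal axis) of the tested genes of 7 lists in *E1E2 G9Gl*, *6KO1* and *6KO2*, with a red bar for the median where every gene had WT counts and open points for genes with none, whose position rests on the prior count. The 10 genes and the other class I heavy chains spread to the right, and the 14 constitutive proteasome genes lie between -1.16 and 0.03.

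Markers of other cell types also differed between conditions. The summed level of 12 leukocyte markers was 3.68 to 4.29 CPM in WT, 32.3 to 34.0 in *E1E2 G9Gl* and 23.4 to 27.0 in *6KO1*, but 5.87 to 7.76 in *6KO2*. In *E1E2 G9Gl* 4 of the 12 had no count, and 5 of the 6 tested were called up (16.8% of all genes). *Itgam*, an integrin of myeloid cells, made up 20.04 CPM of the sum in *E1E2 G9Gl* and *Cd68* 19.4 CPM in *6KO1*. *Ptprc* (CD45), the defining marker, was at 1.89, 0.619 and 0.740 CPM in *E1E2 G9Gl*, *6KO1* and *6KO2*, with no count in WT, and *Adgre1*, which marks macrophages, had no count in any library. *Itgax* was at 0.324, 2.08 and 0.457 CPM and *Lyz2* at 6.002, 0.245 and 0.721 CPM in the same 3 conditions. Of 12 class II genes 3 passed the filter, and the chains *H2-Aa* and *H2-Ab1* had a mean of at most 0.0475 CPM in any condition. *Cd74*, the invariant chain, was at 0.823 CPM in WT, 3.30 in *6KO2*, 11.8 in *6KO1* and 0.228 in *E1E2 G9Gl*, and *H2-DMa*, a peptide exchange chain, at 0.466, 0.955, 1.74 and 2.20 CPM in that order. The summed level of 8 endothelial and epithelial markers was 1.81 to 2.497 CPM in WT, 6.43 to 7.46 in *E1*, 9.07 to 11.5 in *E2*, 5.59 to 8.22 in *E1E2*, 11.4 to 13.8 in *E1 S1S2*, 10.8 to 11.3 in *E1E2 G9Gl*, 7.80 to 9.84 in *6KO2* and 21.7 to 22.4 in *6KO1*. This sum was above WT in every mutant library, and higher in *E1 S1S2* than in *E1E2 G9Gl*. In *6KO1* *Krt8* had 16.7 CPM, *Cdh5* 2.49 and *Tek* 0.979, against 0.984, 0.0541 and 0.0264 in WT. *Epcam* was lower, at 0.0577 CPM against 0.435 in WT. The 11 fibroblast markers summed to 6772 to 8507 CPM in WT, 3828 to 4295 in *6KO1*, 5621 to 5767 in *6KO2* and 8858 to 9561 in *E1E2 G9Gl*, and 5598 to 7174 in the other 4 conditions. *Thy1* was at 7.86 CPM in WT, 0.0340 in *E1 S1S2*, 0.0116 in *6KO1*, 0.0695 in *6KO2* and 16.3 in *E1E2 G9Gl*, and *Col1a2* at 1849, 329, 664, 693 and 1535 CPM in that order. The part of these markers in the class I values was not tested, and in bulk RNA fewer cells of a type and less RNA per cell cannot be told apart.

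Across the 24 libraries, which include the condition differences above, *H2-K1*, *H2-D1*, *B2m* and *Psmb9* followed each other with Pearson correlations of log2(CPM + 1) from 0.961 to 0.989, and *Nlrc5* had 0.890 to 0.965 with them. *Psmb10* had -0.174 to -0.204 with these 4. The tested genes most like each member were found by the same correlation. *H2-K1* was nearest to *Psmb9* (0.989), *F830016B08Rik* (0.983) and *Mir142hg* (0.979), and *Psmb9* to *H2-K1*, *F830016B08Rik* (0.989) and *Oas1g* (0.985). *H2-D1* was nearest to *Tgtp1*, *Trim30a* and *Ifit1bl2* (0.983 to 0.984), *B2m* to *Trim30d* (0.987), *Oas1g* and *Gm4951*, and *Nlrc5* to *Ifi27* (0.994), *Gbp9* and *Trim12c*. Several of these are known interferon-induced genes. The transporter subunits had *Gm45193*, *Herc6* and *Oasl2* (*Tap1*, 0.976 to 0.969) and *Trim56* and *Uba7* (*Tap2*, 0.963 and 0.959) beside 1 unnamed gene. *Psmb8* was nearest to *Dlg1* (0.940) and *Trim6*, *Tapbp* to *Crybg3* (0.940) and *Tnfaip2* beside 1 unnamed gene, and *Psmb10* to *Plcl2* (0.836), *Ifnar2* and *Clic4*.

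*Ehmt2* itself lies in the MHC interval that spans the chromosome 17 members (33915899 to 35267499). In this interval 73 other tested genes, outside the presentation lists, had a median difference from WT of 0.29 in *6KO1*, 0.29 in *6KO2* and 0.095 in *E1E2 G9Gl*, and 836 tested genes of chromosome 17 had 0.29, 0.27 and 0.13 in that order. Of the 73, edgeR called up 15, 7 and 14, where 20.6, 15.3 and 16.8% of all tested genes were called up. The members inside the interval had differences of 1.11 to 5.95 in *E1E2 G9Gl*. The members on other chromosomes, *B2m*, *Nlrc5* and *Psmb10*, had 2.35, 6.94 and 0.11.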

How the data were processed

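Paired reads of stranded total RNA libraries were trimmed by the authors with cutadapt 1.8.1, aligned to GRCm38 with STAR 2.5.2b and counted on genes and repeat elements with TEtranscripts. The authors deposited whole-number counts per gene and library, without normalization. The strand setting of the counting is not given in the sources used here. Conditions were taken from the sample titles, since the treatment field names 4-OHT for every sample. Of the 47937 gene identifiers 47310 had a symbol in GENCODE M21, 1 malformed entry was left out, and 0 columns had no sample.

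Genes were filtered with filterByExpr by condition and scaled with TMM factors (0.906 to 1.10). One model over the 24 libraries was fitted in R 4.3.3, and the quasi-likelihood test of edgeR 4.0.16 (two-sided) was run for 13 comparisons and 1 interaction, with Benjamini-Hochberg adjustment over 18565 genes. SE are derived from the F statistic. Fold changes carry edgeR's prior count, which matters for genes with few counts. Depth limits *Psmb8* and *Psmb9* in WT, and p-values rest on the spread edgeR shares across genes. Correlations used log2(CPM + 1). DESeq2 1.42.0, RLE factors, factors with repeats, 2 other filters, no fold minimum, the 6 libraries alone, a replicate block and each library left out were the alternatives. The members, gene lists and tests were chosen with earlier results of these data known. All 10 members are named. From each other list the text names the genes called in both *6KO* lines in the same direction or, where these were none or over 4, up to 4 with the largest mean change, and also, chosen after their values were seen, *Mr1*, *Psme1*, *Psme2*, *Cd68*, *Adgre1*, *H2-Aa*, *H2-Ab1*, *Ifnb1*, *Ifng* and *Psmb7*. A few genes that this rule names are not reported here. Figures were drawn with matplotlib 3.10.9.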

Additional observations from a re-analysis of the deposited data

Results flagged for a closer look

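For 3 members the effect of 4-OHT differed between the parental line and the *Eset2* clone by a test of the difference itself. The log2 difference of the effects was 2.35 for *Nlrc5*, -1.39 for *Tap2* and -0.58 for *H2-K1*, with adjusted p of 2.07e-04, 1.54e-06 and 0.00555 (edgeR, 3 libraries in each of 4 conditions). *Nlrc5* was higher in all *E1E2* libraries than in all *E2* libraries and in all *E1* libraries than in all WT libraries. In *E2* replicate 2 was the lowest library for *Nlrc5*, *Tap2* and *H2-K1*, and without it the differences were 1.84, -1.53 and -0.73. With each library left out in turn, the differences ranged from 1.84 to 2.98 for *Nlrc5*, from -1.53 to -1.29 for *Tap2* and from -0.73 to -0.48 for *H2-K1*.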

How the results depend on the processing

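Relative to WT, 9 members stayed called in *E1E2 G9Gl* and 9 in *6KO1* with each library left out, and the steps to *6KO1*, *E1E2 G9Gl* and *6KO2* and the comparison of *6KO1* with *6KO2* kept 8 calls each. With no fold minimum the counts were 6 for *E1* against WT, 8 for *E2* against WT and 5 for *E1 S1S2* against *E1*, and the last was 1 when genes had to average over 100 normalized counts, since *Psmb8* was then not tested. With a library left out, the count for *E1E2* against *E2* ranged from 1 to 3. DESeq2 called 5 members in *E2* against WT, where *H2-D1* (1.00) passed 2-fold. *Psmb9* in *E1 S1S2* against WT (2.04) and *Psmb8* in *E1E2* against *E2* (1.12) were not called when only the 6 libraries compared were fitted. *Tapbp* in *6KO2* passed 2-fold without its replicate 2 (1.05), *Psmb10* in *E1E2* without WT replicate 2 (1.17) or *E1E2* replicate 3 (1.03), and the *Psmb8* difference between the effects of 4-OHT was called without *E2* replicate 2 (-1.53).

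Signs turned for differences near 0 or with few counts that were called in neither direction. *Psmb10* in *E1* against WT was -0.0077 with scaling factors that included repeats and -0.0087 with the replicate block, and in *6KO1* it was 0.028 among genes of mean count above 100. With the block, *H2-K1* in *E1E2* against *E2* was 0.0043 and the *Tapbp* difference between the 4-OHT effects was 0.00065. With a library left out, *Psmb10* ranged from -0.11 to 0.20 in *E1*, -0.16 to 0.12 in *6KO1* and -0.047 to 0.29 in *6KO2* against WT, and from -0.16 to 0.15 in *6KO2* against *E1E2 G9Gl*. *B2m* ranged from -0.26 to 0.16 in *E1* and -0.22 to 0.19 in *E2*, *Nlrc5* from -1.07 to 0.068 in *E2*, and *H2-K1* in *E1E2* against *E2* from -0.16 to 0.093. For the difference between the 4-OHT effects the ranges were -1.13 to 0.11 for *Psmb9*, -0.31 to 0.038 for *Tap1* and -0.18 to 0.13 for *Tapbp*. The cause was not tested. The conditions share replicate numbers 1 to 3, but same-numbered libraries correlated from -0.50 to 0.49 in their deviations and in no comparison did all 3 exceed 0.1, so the numbers do not pair the samples. The replicate block gave the counts 3, 4, 7, 6, 9, 9 and 6 against WT and 3, 2, 8, 8, 8 and 8 for the other comparisons, as without it.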
